A study of Macaca mulatta with 24 samples.

Results

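The diet comparison set 12 female rhesus macaques on a Western-style diet (WSD) against 12 on the control diet, with testosterone treatment as the second factor. It asked which genes of visceral fat differed with the diet on average over both hormone states. All 24 animals of the series were members, and 15207 of the 32386 genes in the count table passed the filter on low counts and were tested. The 4 groups of 6 animals were the controls (*C*), which had cholesterol implants and monkey chow, *T*, with testosterone implants and chow, *WSD*, with cholesterol implants and a high-fat WSD, and *T* + *WSD*, with both treatments. The control diet arm was therefore *C* and *T*, the WSD arm was *WSD* and *T* + *WSD*, and treatment had lasted 3 years when the omental white adipose tissue (WAT) was biopsied. Animals of all groups carried an implant and were assigned to groups at random, and they are labelled as 4 years old, an age that the study's methods give differently. Each group held more animals in the wider study, and the 6 sequenced ones were picked by the authors as representative of their group, which limits how far the spread among them stands for the group.

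Omental WAT is a visceral depot in which adipocytes store triglyceride and release fatty acids, leptin and other hormones. Between the adipocytes lie vessels, fibroblasts and macrophages, and the surface of the omentum is covered by mesothelium, a sheet of epithelium-like cells. A high-fat diet is known to enlarge adipocytes, to bring lipid-filled macrophages into the depot and to raise the output of leptin with fat mass.

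Ribosomal RNA was depleted, 1 library per animal was read as single reads, and the authors deposited raw counts per gene. The libraries held 6899185 to 28270776 counts each, with medians of 20779252 on the control diet and 20630512.5 on WSD. In 8 libraries, 2 in each group and so 4 on each diet, the gene ENSMMUG00000038258 held 9.92% to 54.7% of the counts, against 0.879% to 2.51% in the other 16. *C* replicate 1 also stood apart, with an adipocyte marker level of 5.53 where the other 23 animals had 6.87 to 7.84. This level is the mean of log2(CPM + 1) over the list, and CPM is the count scaled to 1000000 in each library after TMM normalization. From here on, a level is the median CPM of the 12 animals on a diet, or of the 6 in a group, with the lowest and highest animal in parentheses, and a log2 fold change is the diet coefficient with its standard error. The tissue label was borne out by the markers, since ADIPOQ, PLIN1, LIPE and CIDEC, which define adipocytes, had mean levels of 1204, 1799.8, 1607 and 394 CPM.

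WSD moved genes of many kinds in omental WAT. The enzymes BHMT2 and DMGDH, the proteases MMP7 and MMP17, the chitinase CHIT1 and leptin were among those higher on WSD, and mesothelial markers, complement genes and clock-output genes were among those lower. A differentially expressed gene (DEG) had to change by more than 1.5-fold at an adjusted p under 0.05, and 765 genes were DEGs of the diet comparison (edgeR, 5.03% of those tested). Of these, 346 were higher on WSD (2.28% of tested genes) and 419 were lower (2.76%). Their median log2 fold changes were 0.84 and -0.99, and 126 rose and 203 fell by more than 2-fold. Without a fold threshold 1697 genes passed (11.2%), and the median log2 fold change of all tested genes was -0.01. No gene had its 12 WSD animals all above or all below the 12 on the control diet (0%), so every difference described here is one between overlapping distributions. Without *C* replicate 1 there were 492 DEGs, without *WSD* replicate 21 there were 451, in the 16 libraries outside the group of 8 there were 391, and in those 8 alone there were 0 (1102 genes with an unadjusted p under 0.05).

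**Figure D1:**
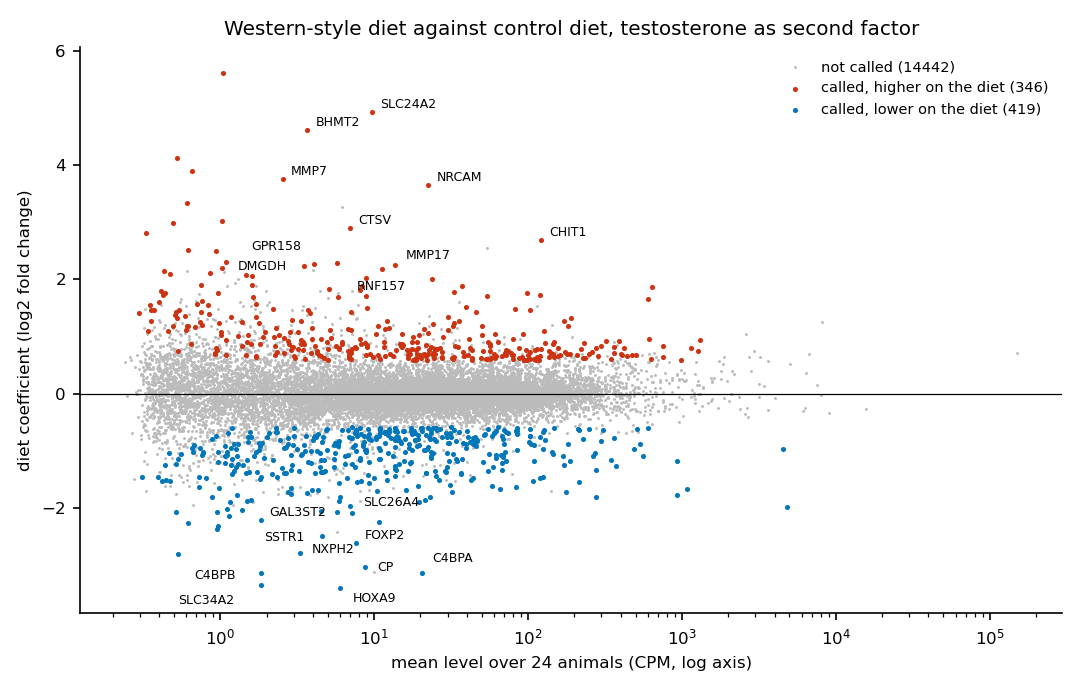
Diet coefficient (log2 fold change, WSD against control diet) of each of 15207 tested genes against its mean level over 24 animals (CPM, log axis). The 346 genes called higher are red, the 419 called lower are blue, and the 20 leading genes with a symbol carry their names.

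The coefficient averages both hormone states, and each state gave a separate estimate from different animals. In *T* + *WSD* against *T* there were 574 DEGs (3.77%), 356 higher and 218 lower. In *WSD* against *C* edgeR called 0 DEGs (0%), although 2807 genes had an unadjusted p under 0.05, the smallest adjusted p was 0.0593, and DESeq2 called 238 DEGs. The test of the difference between both effects, the interaction, called 37 genes (0.243%), 32 of them with the higher value under testosterone. Of the 574 DEGs under testosterone, 463 (80.7%) had the same sign without it, compared with 61.6% of all tested genes. Moreover, 173 of them (30.1%) had the same sign and an unadjusted p under 0.05 without testosterone, compared with 13.3% of all tested genes, and 13 had the opposite sign and such a p. Across all tested genes the effects without and with testosterone were weakly related (Pearson r = 0.316, Spearman rho = 0.31, genes not being independent). Among the 765 DEGs of the diet comparison all had the same sign in both states, which the averaging partly fixes. Of these DEGs, 444 had an unadjusted p under 0.05 in both states, and 2 passed the interaction test. The larger effect was under testosterone in 531, and the matching share of all tested genes was not computed.

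**Figure D2:**
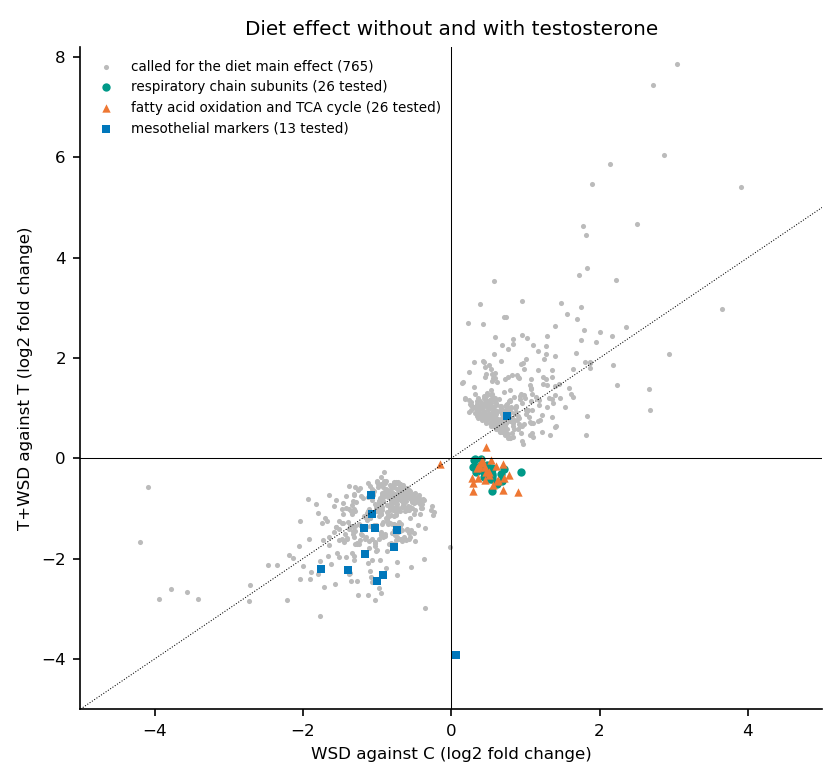
Log2 fold change of WSD against control diet without testosterone (horizontal, *WSD* against *C*) and with it (vertical, *T* + *WSD* against *T*) for the 765 DEGs (grey), 26 respiratory chain subunits (green circles), 26 genes of fatty acid oxidation and the TCA cycle (orange triangles) and 13 mesothelial markers (blue squares). The DEGs lie in the quadrants of equal sign, and the 26 respiratory chain subunits are all above 0 without testosterone and all below 0 with it.

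Among the 10 leading genes higher on WSD were BHMT2 and DMGDH, enzymes that act on methyl-group carriers. BHMT2, which remethylates homocysteine to methionine, had a median of 0.178 CPM (0 to 1.27) on the control diet and 7.39 CPM (0.542 to 13.5) on WSD (log2 fold change 4.62 ± 0.68, adjusted p = 0.00391). The raw counts behind these levels were 0 to 31 on the control diet and 4 to 321 on WSD, and 9 of the 12 WSD animals lay above every control-diet animal (every control in what follows). DMGDH, the mitochondrial dehydrogenase of dimethylglycine, had a median of 1.04 CPM (0.562 to 3.07) on the control diet and 6.12 CPM (0.949 to 11.3) on WSD (log2 fold change 2.24 ± 0.35, adjusted p = 0.00684). In both genes every *T* + *WSD* animal was above all 12 control-diet animals, the *WSD* group was divided into 3 high and 3 low animals, and *C* replicate 6 was the highest control. DMGDH and BHMT2 stand near each other on chromosome 6 of the RefSeq assembly T2T-MMU8v2.0, with 1 pseudogene between them. Both calls held in each of 24 fits that left out 1 animal, and in the 16 libraries outside the group of 8.

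Other leading genes served ion exchange, adhesion and proteolysis. SLC24A2, a potassium-dependent sodium/calcium exchanger, had a median of 0.118 CPM (0 to 5.23) on the control diet and 14.8 CPM (0 to 47.6) on WSD (log2 fold change 4.92 ± 1.04, adjusted p = 0.0101), and *C* replicate 6, the highest control, overlapped the lowest *T* + *WSD* animal, at 5.12 CPM. NRCAM, a neuronal cell adhesion molecule, had a median of 1.55 CPM (0.781 to 10.8) on the control diet and 30.6 CPM (0.915 to 113) on WSD (log2 fold change 3.65 ± 0.71, adjusted p = 0.00972). In *T* + *WSD* it stood at 69.4 CPM (18.3 to 113), above all control-diet animals, and in *WSD* at 5.54 CPM (0.915 to 42.9), overlapping them. MMP7, the protease matrilysin, had a median of 0.0958 CPM (0 to 1.17) on the control diet and 2.25 CPM (0.0832 to 32.3) on WSD (log2 fold change 3.76 ± 0.75, adjusted p = 0.00972), with at most 21 reads in any control-diet library. MMP17, a membrane-anchored matrix metalloproteinase, had a median of 3.00 CPM (0.169 to 29.8) on the control diet and 18.9 CPM (7.37 to 54.8) on WSD (log2 fold change 2.25 ± 0.54, adjusted p = 0.0142). All 12 WSD animals were above the control median of MMP17, and 2 were above its highest control. RNF157, a ubiquitin ligase, had a median of 2.94 CPM (0.506 to 12.9) on the control diet and 23.7 CPM (1.62 to 32.8) on WSD (log2 fold change 2.18 ± 0.47, adjusted p = 0.0103).

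The calls of 3 further leading genes depended on single animals. CHIT1, the chitotriosidase that lipid-filled macrophages secrete, had a median of 6.92 CPM (0.112 to 117) on the control diet and 139 CPM (2.66 to 1225) on WSD (log2 fold change 2.69 ± 0.78, adjusted p = 0.0322). All 6 *T* + *WSD* animals were above the 12 control-diet animals, and the call was lost in 8 of the 24 fits that each left out 1 animal (highest adjusted p = 0.0568). CTSV, a lysosomal cysteine protease, had a median of 0.929 CPM (0 to 5.31) on the control diet and 1.82 CPM (0.0402 to 43.1) on WSD (log2 fold change 2.9 ± 0.95, adjusted p = 0.0494), with 5 WSD animals above every control and 6 below the control median. Its call was kept in 7 of the 24 fits. GPR158, a G protein-coupled receptor known from neurons, had a median of 0.597 CPM (0.0726 to 8.26) on the control diet and 4.61 CPM (0 to 23.2) on WSD (log2 fold change 2.26 ± 0.67, adjusted p = 0.0349), and *T* replicate 14, at 8.26 CPM, was the only control-diet animal above 2.68. Its call was kept in 15 of the 24 fits. STMN2, a neuronal stathmin, was also a DEG but had at most 2 reads in any control-diet library, so no fold is given, and on WSD it ran from 0.0789 to 9.33 CPM (median 0.498). Of the 10 leading genes, 8 were also called in the 16 libraries outside the group of 8, all but CHIT1 and CTSV.

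**Figure D3:**
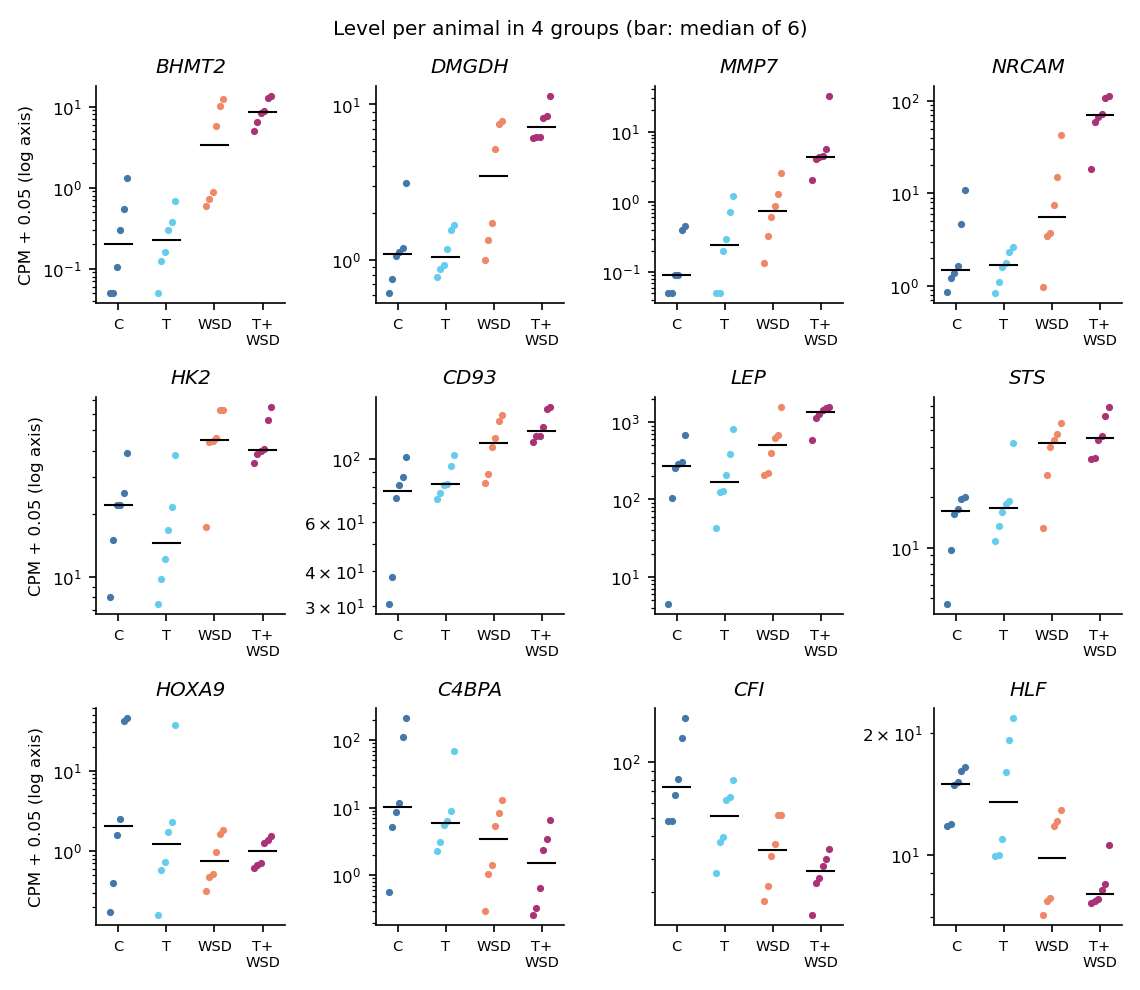
Level of 12 genes in each animal (CPM + 0.05, log axis) in *C*, *T*, *WSD* and *T* + *WSD*, with the median of 6 animals as a bar. BHMT2, DMGDH, MMP7 and NRCAM are higher in every *T* + *WSD* animal than in all 12 control-diet animals, whereas HOXA9 and C4BPA are high in 3 control-diet animals and otherwise overlap between diets.

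Among the 10 leading genes lower on WSD, 7 were highest in the same 3 control-diet animals. These 3 also had the highest mean log2(CPM + 1) of the mesothelial marker list described below. It was 8.04 in *C* replicate 1, 7.24 in *T* replicate 18 and 7.14 in *C* replicate 4, and at most 6.84 in any other animal. HOXA9, a homeobox factor of body position, had a median of 1.60 CPM (0.109 to 45.4) on the control diet and 0.795 CPM (0.271 to 1.79) on WSD (log2 fold change -3.39 ± 0.90, adjusted p = 0.0212). *C* replicate 1 had 45.4 CPM, *C* replicate 4 had 41.0 and *T* replicate 18 had 36.9, whereas the other 9 control-diet animals had 0.109 to 2.46, a range that held the 12 WSD animals. Those 3 animals were also the highest for FOXP2, a forkhead transcription factor (median 3.55 CPM, 1.56 to 57.6, on the control diet and 1.91, 1.07 to 3.80, on WSD, log2 fold change -2.62 ± 0.62, adjusted p = 0.0140). They were the highest for the chains of C4b-binding protein, an inhibitor of complement, as well. C4BPA had a median of 7.49 CPM (0.527 to 213) on the control diet and 1.83 CPM (0.208 to 12.9) on WSD (log2 fold change -3.13 ± 0.83, adjusted p = 0.0217), and C4BPB one of 0.525 CPM (0.0878 to 20.5) on the control diet and 0.223 CPM (0 to 0.947) on WSD (log2 fold change -3.14 ± 0.81, adjusted p = 0.0197). The genes C4BPB and C4BPA are direct neighbours on chromosome 1 of T2T-MMU8v2.0. Without *T* replicate 18 the adjusted p values were 0.129 for HOXA9, 0.0716 for C4BPA and 0.0631 for C4BPB. The call of FOXP2 held without any 1 animal, but no such fit left out all 3 of these high animals together.

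The remaining 6 included transporters, a receptor and an enzyme. SLC34A2, a sodium/phosphate cotransporter of epithelia, had a median of 0.415 CPM (0 to 25.6) on the control diet and 0.126 CPM (0 to 1.27) on WSD (log2 fold change -3.35 ± 0.87, adjusted p = 0.0206). NXPH2, a neurexophilin, had a median of 1.90 CPM (0.284 to 36.1) on the control diet and 0.427 CPM (0 to 2.49) on WSD (log2 fold change -2.78 ± 0.72, adjusted p = 0.0198). SSTR1, a somatostatin receptor, had a median of 3.79 CPM (1.26 to 37.6) on the control diet and 0.670 CPM (0 to 7.19) on WSD (log2 fold change -2.50 ± 0.64, adjusted p = 0.0199), with 9 of 12 WSD animals below every control. Again *C* replicate 1, *C* replicate 4 and *T* replicate 18 were the highest for all 3 genes, and the calls were lost without *C* replicate 1 (adjusted p = 0.0529 for SLC34A2 and 0.0584 for SSTR1) or, for NXPH2, without *C* replicate 1 or *T* replicate 18 (highest adjusted p = 0.0662). CP, the copper-carrying ferroxidase ceruloplasmin, had a median of 2.64 CPM (0.122 to 80.9) on the control diet and 0.857 CPM (0.361 to 3.16) on WSD (log2 fold change -3.04 ± 0.80, adjusted p = 0.0209), was highest in *C* replicates 1 and 4, and was not called without *T* replicate 13 (adjusted p = 0.0579). GAL3ST2, a sulfotransferase of galactose residues, had a median of 1.83 CPM (0.657 to 9.84) on the control diet and 0.535 CPM (0 to 1.26) on WSD (log2 fold change -2.22 ± 0.50, adjusted p = 0.0118), with all 12 WSD animals below the control median and no single animal deciding the call. SLC26A4, the anion exchanger pendrin, had a median of 3.11 CPM (0.351 to 71.8) on the control diet and 1.25 CPM (0 to 17.8) on WSD (log2 fold change -2.08 ± 0.68, adjusted p = 0.0485) and kept its call in 6 of the 24 fits. None of the 10 was called in the 16 libraries outside the group of 8, where their log2 fold changes ran from -3.22 to -1.54.

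Mesothelial markers had a lower median change than any other of the 35 lists examined. Of 13 tested mesothelial markers, 9 fell and none rose (median log2 fold change -1.28, compared with -0.01 over all tested genes). The counts of list members here and below stand against 2.28% of all tested genes called higher and 2.76% called lower. MSLN, the surface protein mesothelin, had a median of 266 CPM (78.6 to 1709) on the control diet and 118 CPM (17.7 to 332) on WSD (log2 fold change -1.81 ± 0.45, adjusted p = 0.0176). UPK3B, a uroplakin, had a median of 256 CPM (151 to 887) on the control diet and 95 CPM (9.61 to 275) on WSD (log2 fold change -1.54 ± 0.37, adjusted p = 0.0142), with 9 of 12 WSD animals below every control. The transcription factor WT1 had a median of 84.3 CPM (40.0 to 130.0) on the control diet and 38.8 CPM (11 to 90.0) on WSD (log2 fold change -1.08 ± 0.24, adjusted p = 0.0113), and the keratin KRT19 one of 239 CPM (97.4 to 450.3) on the control diet and 61.5 CPM (5.94 to 283) on WSD (log2 fold change -1.72 ± 0.38, adjusted p = 0.0109). DSP, KRT18, ITLN1, PKHD1L1 and BNC1 also fell, by 1.09 to 1.98 on the log2 scale, of which ITLN1 encodes omentin, a lectin known from visceral fat. GPM6A, PRG4 and KRT7 had log2 fold changes of -0.91 to -1.75 and CALB2 of 0.80, and these 4 did not pass. Without *C* replicate 1 there were 6 that fell, and in the 16 libraries outside the group of 8 there were 3, with medians of -1.09 and -1.03. In bulk tissue, fewer cells of a type and less RNA per cell cannot be told apart.

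The mean level of the mesothelial list was 6.5 (6.09 to 8.04) in control-diet animals and 5.53 (3.38 to 6.84) in WSD animals. It was highest in *C* replicate 1 (8.04), *T* replicate 18 (7.24) and *C* replicate 4 (7.14), the animals highest for most of the 10 leading genes lower on WSD. The 6 *T* + *WSD* animals had 5.01 (3.38 to 5.71) and lay below all 12 control-diet animals, whereas the *WSD* group, at 6.31 (4.59 to 6.84), overlapped them. With this level as a covariate in the fit, 1 gene was called for diet, ENSMMUG00000040072, which has no symbol in the gene name table (log2 fold change 4.09 ± 0.61, adjusted p = 0.0122). The covariate is measured in the same libraries and differs between the diets, so diet and mesothelial content cannot be told apart by this fit. In that fit, the log2 fold changes of the leading increases were 3.83 for BHMT2, 3.12 for MMP7, 2.92 for SLC24A2, 2.38 for NRCAM, 1.98 for GPR158, 1.67 for CTSV, 1.65 for DMGDH, 1.16 for RNF157, 1.01 for MMP17 and 0.95 for CHIT1, and 8 of the 10 leading genes higher on WSD had an unadjusted p under 0.05. None of the 10 leading genes lower on WSD had such a p, and 6 changed sign, C4BPA (0.93), C4BPB (0.68), NXPH2 (0.54), SLC26A4 (0.51), SSTR1 (0.064) and SLC34A2 (0.032). Over all 15207 tested genes 696 had such a p, and of the 765 DEGs 218 had one with the sign unchanged. The leading genes were picked by the size of their change in these same animals, so these counts only describe them.

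Of 14 endothelial and 12 smooth muscle and pericyte markers, 2 each rose and none fell, against 2.28% of all tested genes higher and 2.76% lower. In the endothelial list, PLVAP, of the diaphragms of fenestrated capillaries, had a median of 65.5 CPM (34.0 to 97.0) on the control diet and 117 CPM (55.0 to 171) on WSD (log2 fold change 0.81 ± 0.17, adjusted p = 0.0101), and CD93, a receptor of endothelial cells, had a median of 81.1 CPM (30.4 to 103) on the control diet and 121 CPM (82.1 to 154) on WSD (log2 fold change 0.68 ± 0.15, adjusted p = 0.0113). For CD93, 10 of 12 WSD animals lay above every control. These were the 2 of 14 tested members that were called, 5 more (PECAM1, VWF, TIE1, ESAM and CDH5) had an adjusted p under 0.05 below 1.5-fold, and the median log2 fold change was 0.42. With the mesothelial level as a covariate no endothelial marker was called, the median was 0.086 and CD93 was at 0.31, and in the 16 libraries outside the group of 8 there was 1 called. In the smooth muscle and pericyte list, RGS5 (median 42.7 CPM, 16.8 to 62.6, on the control diet and 71.6, 37.5 to 115, on WSD, log2 fold change 0.84 ± 0.20, adjusted p = 0.0137) and MCAM (median 279 CPM, 60.2 to 439, on the control diet and 522, 208 to 805, on WSD, log2 fold change 0.92 ± 0.24, adjusted p = 0.0204) rose, and the list median was 0.02. The list was split, with 6 members positive and 6 negative. At an unadjusted p under 0.05, 5 were higher and 3 lower, against 4283 of all 15207 tested genes in either direction. The contractile proteins of the same list did not pass, as in MYH11 (log2 fold change -0.39, adjusted p = 0.358) and ACTA2 (log2 fold change 0.35, adjusted p = 0.395).

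Few members of the other cell lists were called. None of 9 adipocyte markers was called (median 0.21), and the one with the smallest p, PLIN1, the coat protein of the lipid droplet, had a median of 1539 CPM (315 to 2592) on the control diet and 2036 CPM (1353 to 2812) on WSD (log2 fold change 0.39, adjusted p = 0.233). ADIPOQ, which encodes adiponectin, had a log2 fold change of 0.02 (adjusted p = 0.970). Of 12 fibroblast and progenitor markers, DPT, the matrix protein dermatopontin, rose (log2 fold change 0.66, adjusted p = 0.0364) and DPP4, a peptidase of progenitor cells that mesothelium also carries, fell (log2 fold change -1.34, adjusted p = 0.0332). DPT was called in 14 and DPP4 in 18 of the 24 fits, and DPP4 turned to 0.36 with the mesothelial covariate. None of 14 T and NK cell markers was called (GZMK, a granzyme, log2 fold change -0.47, adjusted p = 0.465), none of 5 B and plasma cell markers (CD79B, log2 fold change -0.36, adjusted p = 0.468) and none of 4 hepatocyte and pancreas markers. ALB, albumin, was at 0.253 CPM (0 to 1.74) on the control diet and 0.392 CPM (0 to 34.3) on WSD, with *T* + *WSD* replicate 11 at the highest value (log2 fold change 2.63, adjusted p = 0.0622). Of 5 erythroid markers (median -0.49) 1 fell, AHSP, which stabilizes alpha-globin (median 1.80 CPM, 0.203 to 5.74, on the control diet and 0.426, 0 to 1.58, on WSD, log2 fold change -2.03, adjusted p = 0.0142).

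**Figure D4:**
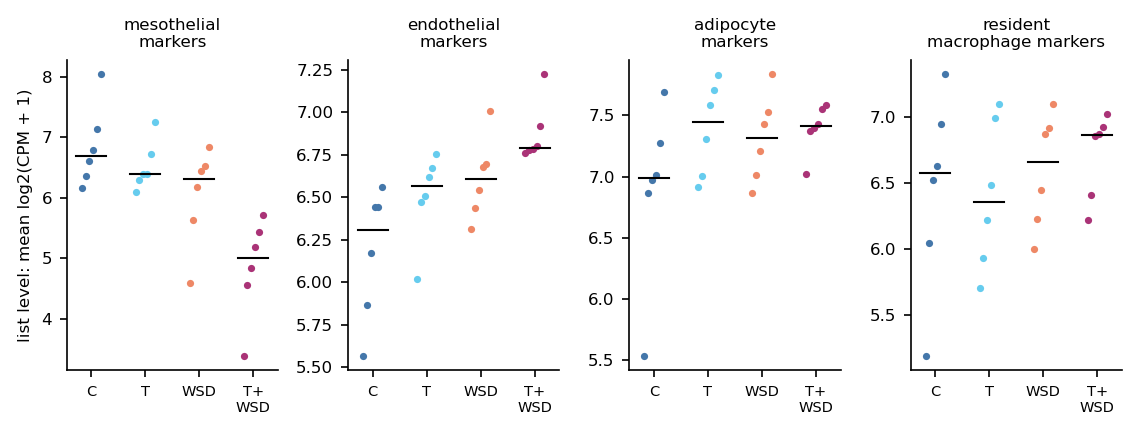
Level of 4 marker lists in each animal, as the mean of log2(CPM + 1) over the tested members, in *C*, *T*, *WSD* and *T* + *WSD*, with the median of 6 animals as a bar. Mesothelial levels in *T* + *WSD* (3.38 to 5.71) lie below those of all control-diet animals (6.09 to 8.04), endothelial levels in *T* + *WSD* (6.763 to 7.226) lie above the highest control-diet animal (6.756), and the adipocyte level of *C* replicate 1 (5.53) lies below all others.

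Leptin and some genes of insulin action rose. LEP, the satiety hormone that adipocytes release as they fill, had a median of 231 CPM (4.39 to 815) on the control diet and 913 CPM (205 to 1576) on WSD (log2 fold change 1.66 ± 0.52, adjusted p = 0.0425). In *T* + *WSD* it stood at 1349.8 CPM (592 to 1576), 5 of the 6 animals above every control, and in *WSD* at 509 CPM (205 to 1568). The call was kept in 10 of the 24 fits, among them the one without *C* replicate 1, the lowest animal at 4.39 CPM. CFD, the serine protease adipsin, was the other of the 8 tested adipokines to pass (median 769 CPM, 415 to 1127, on the control diet and 1114, 536 to 2096, on WSD, log2 fold change 0.59 ± 0.18, adjusted p = 0.0366, kept in 14 of the 24 fits and lost without *C* replicate 1). RBP4, a retinol carrier, had a log2 fold change of 0.69 (adjusted p = 0.0539). Of 18 genes of insulin signalling and glucose transport, HK2, the insulin-induced hexokinase, rose from 19.1 CPM (7.38 to 38.8) to 44.3 CPM (17.3 to 64.6) (log2 fold change 1.24 ± 0.26, adjusted p = 0.0101), and PIK3R1, the regulatory subunit of phosphoinositide 3-kinase, from 373 CPM (271 to 563) to 607 CPM (292 to 876) (log2 fold change 0.67 ± 0.15, adjusted p = 0.0118). The insulin receptor INSR (log2 fold change 0.03, adjusted p = 0.903), IRS1 (log2 fold change -0.24, adjusted p = 0.423) and the glucose transporter SLC2A4 (log2 fold change 0.41, adjusted p = 0.338) did not pass. The calls of HK2 and PIK3R1 held without any 1 animal.

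Genes of triglyceride handling were mostly not called. Of 12 genes of triglyceride synthesis, MOGAT1, which acylates monoacylglycerol, rose from 0.170 CPM (0 to 0.327) to 1.03 CPM (0 to 2.25) (log2 fold change 2.52 ± 0.53, adjusted p = 0.0101), with at most 8 reads in any control-diet library, 8 WSD animals above every control and 3 below the control median. In contrast, DGAT1 (log2 fold change 0.26, adjusted p = 0.487) and DGAT2 (log2 fold change 0.64, adjusted p = 0.233), which add the last fatty acid, did not pass. The largest log2 fold change of the list, 3.27, was that of another member that was not called. NPR3, the clearance receptor of natriuretic peptides, which stimulate lipolysis, was the 1 of 11 lipolysis genes that rose (median 17.4 CPM, 2.19 to 79.9, on the control diet and 103, 9.81 to 157, on WSD, log2 fold change 1.71 ± 0.51, adjusted p = 0.0357, kept in 13 of the 24 fits). ELOVL5, a fatty acid elongase, was the 1 of 12 genes of de novo lipogenesis (median 423 CPM, 50.3 to 749, on the control diet and 797, 436 to 1508, on WSD, log2 fold change 0.96 ± 0.29, adjusted p = 0.0364, kept in 16), and FASN, the fatty acid synthase, had a log2 fold change of -0.02 (adjusted p = 0.986). Of 14 genes of fatty acid uptake, ACSL3, an acyl-CoA synthetase, rose (median 47.9 CPM, 36.7 to 74.8, on the control diet and 71.7, 49.1 to 315, on WSD, log2 fold change 0.76, adjusted p = 0.0401, kept in 10, and 0.46 without *WSD* replicate 20, the animal at 315), and VLDLR, the receptor of very low density lipoprotein, fell (median 80.6 CPM, 44.3 to 106, on the control diet and 44.4, 34.4 to 108, on WSD, log2 fold change -0.65, adjusted p = 0.0198, kept in all 24). None of 10 lipid droplet proteins passed; FITM2, which shapes droplets, had the smallest p (log2 fold change 0.45, adjusted p = 0.0614), and PLIN3 had a log2 fold change of 0.50 (adjusted p = 0.123).

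In cholesterol handling, a transporter and a receptor of efflux rose. ABCA1, the transporter that loads cholesterol onto apolipoprotein and a target of the sterol receptor LXR, had a median of 315 CPM (218 to 464) on the control diet and 482 CPM (314 to 755) on WSD (log2 fold change 0.67 ± 0.14, adjusted p = 0.00972), with 7 of 12 WSD animals above every control. SCARB1, the receptor of high density lipoprotein, had a median of 186 CPM (53.9 to 261) on the control diet and 270.2 CPM (148 to 363) on WSD (log2 fold change 0.62 ± 0.18, adjusted p = 0.0302), a call kept in 19 of the 24 fits. These were the 2 of 13 genes of efflux and LXR targets that rose, none fell, and the median was 0.46. CETP, which exchanges lipoprotein lipids, was not called for diet (log2 fold change 1.08, adjusted p = 0.201) but passed the interaction test (adjusted p = 0.0417), with log2 fold changes of 2.76 without testosterone and -0.61 with it. It was named after its values were seen. None of 14 genes of cholesterol synthesis and uptake passed (median -0.14); the smallest p was that of MVK, mevalonate kinase (log2 fold change 0.40, adjusted p = 0.106).

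No gene of the lists of oxidative metabolism was called for diet, and the list medians had opposite signs in the hormone states. None of 26 respiratory chain subunits was called, with a median log2 fold change of 0.11, and NDUFA5, of complex I, had the smallest p (log2 fold change 0.20, adjusted p = 0.254). In *WSD* against *C* all 26 subunits had positive values (median 0.48), and in *T* + *WSD* against *T* all 26 had negative values (median -0.26). The list level was 6.48 (5.68 to 6.62) in *C*, 6.45 (6.15 to 6.98) in *T*, 6.68 (6.37 to 7.50) in *WSD* and 6.25 (6.23 to 6.39) in *T* + *WSD*, so the *T* + *WSD* group had the lowest median and the narrowest range, the *WSD* group had the highest median, and the ranges of all groups overlapped. *C* replicate 1 had the lowest level of the series (5.68), and *WSD* replicates 20 and 24 the highest (7.50 and 7.31). Without *C* replicate 1 the list median of the diet coefficient over both hormone states was 0.044, against 0.11 with all animals. The list medians within each hormone state were not computed without that animal. No subunit passed the interaction test (smallest adjusted p = 0.0908), and 22 of 26 had an unadjusted interaction p under 0.05. Over all 15207 tested genes 2050 had such a p, and the 26 subunits are not independent of each other. Likewise, none of 26 genes of fatty acid oxidation and the TCA cycle was called (IDH3A, an isocitrate dehydrogenase subunit, log2 fold change 0.35, adjusted p = 0.0560), with medians of 0.47 without testosterone and -0.31 with it, opposite signs in 24 of 26 and a smallest adjusted interaction p of 0.127.

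Of 7 aminotransferase and glyceroneogenesis genes 2 fell, and of 19 genes of branched-chain amino acid breakdown 1 fell, against 2.76% of all tested genes. GPT, alanine aminotransferase, had a median of 1.22 CPM (0.598 to 2.64) on the control diet and 0.566 CPM (0 to 1.08) on WSD (log2 fold change -1.20 ± 0.28, adjusted p = 0.0127), with 8 of 12 WSD animals below every control. PCK2, the mitochondrial enzyme that makes phosphoenolpyruvate, had a median of 14.4 CPM (9.16 to 44.8) on the control diet and 7.55 CPM (3.39 to 20.1) on WSD (log2 fold change -1.09 ± 0.28, adjusted p = 0.0189). The other 5 of the 7 did not pass, including GOT1 (log2 fold change -0.04, adjusted p = 0.927) and PCK1 (log2 fold change -0.56, adjusted p = 0.538). In the branched-chain list, PPM1K, the phosphatase that activates the branched-chain ketoacid dehydrogenase, fell from 19.5 CPM (11.9 to 47.4) to 9.96 CPM (5.64 to 19.5) (log2 fold change -0.94 ± 0.21, adjusted p = 0.0118). Here 9 of 12 WSD animals were below every control. BCAT2, the first enzyme of that pathway in mitochondria, had an adjusted p of 0.0249 with a log2 fold change of -0.47, under the fold threshold. GPT, PCK2 and PPM1K were called without any 1 animal. DDT, D-dopachrome tautomerase, a cytokine related to MIF, had a median of 55.7 CPM (40.8 to 90.6) on the control diet and 36.0 CPM (24.9 to 99.9) on WSD and did not pass (log2 fold change -0.42, adjusted p = 0.181).

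Of 17 tested genes of lipid-associated macrophages, 9 were higher on WSD and 1 was lower at an unadjusted p under 0.05. Over all 15207 tested genes, 4283 had such a p in either direction. Beside CHIT1, described above, MMP9, a gelatinase, rose from 2.30 CPM (0.371 to 8.05) to 6.71 CPM (1.58 to 30.9) (log2 fold change 1.69 ± 0.48, adjusted p = 0.0289) and GPNMB, a glycoprotein of lysosomes, from 250.3 CPM (98.0 to 527) to 434 CPM (135 to 1159.8) (log2 fold change 0.83 ± 0.25, adjusted p = 0.0391). MMP9 was not called without *T* replicate 17 or *WSD* replicate 20 (highest adjusted p = 0.0564), and GPNMB was called in 9 of the 24 fits. CD9, a tetraspanin of several cell types, fell from 118 CPM (72.2 to 283) to 67.4 CPM (48.9 to 125) (log2 fold change -0.74 ± 0.17, adjusted p = 0.0136). Of 17 tested genes 3 rose and 1 fell (median 0.51), and the receptor TREM2 (log2 fold change 0.91, adjusted p = 0.134) and SPP1, osteopontin (log2 fold change 1.35, adjusted p = 0.123), did not pass. In *T* + *WSD* against *T*, 7 of the 17 were called higher. Leaving out 1 animal gave 0 to 6 that rose. Of 11 resident macrophage markers 1 rose, the scavenger receptor STAB1 (median 269 CPM, 118 to 613, on the control diet and 565, 291 to 772, on WSD, log2 fold change 0.69, adjusted p = 0.0364, kept in 10 of the 24 fits), while CD163 was at 0.32 (adjusted p = 0.284). None of 20 lysosomal genes passed the fold threshold, and LAMP1, a lysosomal membrane protein, had an adjusted p of 0.0142 with a log2 fold change of 0.39. Of 16 cytokines and chemokines, CXCL14 rose (median 5.64 CPM, 1.46 to 14.8, on the control diet and 17.3, 5.42 to 27.7, on WSD, log2 fold change 1.27 ± 0.31, adjusted p = 0.0173) and IL6 (log2 fold change 1.48, adjusted p = 0.116), CCL2 (log2 fold change 0.51, adjusted p = 0.292) and TNF (log2 fold change -0.16, adjusted p = 0.847) did not pass. The shares called, 6.25% of the cytokines and chemokines and 9.09% of the resident macrophage markers, compare with 5.03% of all tested genes.

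Of 16 tested complement genes, 4 fell and none rose (median -0.34), against 2.76% of all tested genes lower and 2.28% higher. CFD, which is complement factor D but stood in the adipokine list, rose (log2 fold change 0.59, adjusted p = 0.0366). CFI, the protease that cleaves C3b, had a median of 63.8 CPM (25.3 to 173) on the control diet and 28.9 CPM (15 to 52.1) on WSD (log2 fold change -1.20 ± 0.24, adjusted p = 0.00972), all 12 WSD animals lying below the control median. CFB, the protease of the alternative pathway convertase, had a median of 1111 CPM (387 to 3498) on the control diet and 516 CPM (135 to 1079) on WSD (log2 fold change -1.17 ± 0.28, adjusted p = 0.0142). C3, the central component, had a median of 5267 CPM (2648 to 18032) on the control diet and 2808 CPM (1291 to 7065) on WSD (log2 fold change -0.96 ± 0.28, adjusted p = 0.0305), and C1S, a protease of the classical pathway, one of 744 CPM (339 to 1449.6) on the control diet and 485 CPM (265 to 731) on WSD (log2 fold change -0.61 ± 0.19, adjusted p = 0.0428). CFI and CFB were called without any 1 animal, C3 in 18 and C1S in 10 of the 24 fits, with 2 of the 4 called without *C* replicate 1. With the mesothelial level as a covariate the log2 fold changes were -0.46 for CFI, -0.02 for CFB, -0.0039 for C3 and -0.04 for C1S. The mesothelial level was itself lower on WSD, so this fit cannot tell diet and mesothelial content apart for these 4 genes. The part of mesothelial content in their fall was not tested.

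In the matrix list, ADAMTS5, an aggrecan-cleaving protease, rose from 88.3 CPM (44.3 to 169) to 275 CPM (72.2 to 561) (log2 fold change 1.33 ± 0.30, adjusted p = 0.0118), and TIMP1, an inhibitor of matrix proteases, fell from 310.5 CPM (92.0 to 926) to 163 CPM (64.2 to 340.4) (log2 fold change -1.03 ± 0.29, adjusted p = 0.0268). With MMP7, 2 of 23 tested genes rose and 1 fell (median 0.07), and the fibrillar collagens of the fibroblast list, such as COL1A1 (log2 fold change -0.12, adjusted p = 0.873), did not pass. TIMP1 was not called without *C* replicate 1 (adjusted p = 0.0619), and its log2 fold change was 0.052 with the mesothelial covariate.

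Of 15 Wnt ligands and secreted modulators, 2 rose and 4 fell (median -0.78), against 2.28% of all tested genes higher and 2.76% lower. FRZB, a secreted Wnt antagonist, rose from 10.3 CPM (5.96 to 29.7) to 43.8 CPM (6.64 to 226) (log2 fold change 1.88 ± 0.42, adjusted p = 0.0114), and RSPO3, which amplifies Wnt signals, from 5.67 CPM (2.92 to 13.7) to 13.7 CPM (5.76 to 50.03) (log2 fold change 1.13 ± 0.26, adjusted p = 0.0127). All 12 WSD animals were above the control median of RSPO3. The ligand WNT2B fell from 49.5 CPM (27.5 to 122) to 27.6 CPM (16 to 55.0) (log2 fold change -0.83 ± 0.19, adjusted p = 0.0118) and WNT9A from 20.8 CPM (13 to 37.2) to 13.9 CPM (5.37 to 23.7) (log2 fold change -0.70 ± 0.18, adjusted p = 0.0207). RSPO1 (log2 fold change -0.91, adjusted p = 0.0302) and WNT5B (log2 fold change -1.02, adjusted p = 0.0406) fell as well, and WNT3, at 6.38 CPM (3.66 to 14.7) on the control diet and 3.16 CPM (2.35 to 10.5) on WSD, missed the threshold (log2 fold change -0.80, adjusted p = 0.0503). FRZB, RSPO3, WNT2B and WNT9A were called without any 1 animal, and their log2 fold changes with the mesothelial covariate were 1.60, 0.30, -0.29 and -0.23. Without *C* replicate 1, 2 of the 15 genes rose and 2 fell.

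Of 6 tested factors that differ between fat depots, 3 fell and 1 rose, against 2.76% of all tested genes lower and 2.28% higher. GATA6, a factor of mesoderm-derived visceral tissue, fell from 42.9 CPM (28.3 to 59.4) to 21.3 CPM (6.22 to 48.3) (log2 fold change -0.83 ± 0.19, adjusted p = 0.0130), with 8 of 12 WSD animals below every control and a log2 fold change of -0.35 with the mesothelial covariate. GATA5 fell from 6.42 CPM (3.25 to 11.5) to 2.84 CPM (1.22 to 9.02) (log2 fold change -0.87 ± 0.28, adjusted p = 0.0491), a call kept in 7 of the 24 fits. TBX15, a T-box factor higher in subcutaneous than visceral fat, rose from 0.287 CPM (0 to 0.629) to 1.09 CPM (0 to 3.46) (log2 fold change 1.90 ± 0.53, adjusted p = 0.0268), with at most 63 reads in a library, and was not called without *WSD* replicate 21 or 23 (highest adjusted p = 0.0591). HOXA9, described above, was the third that fell, while HOXC6 (log2 fold change -0.54, adjusted p = 0.301) and HOXC10 (log2 fold change 0.28, adjusted p = 0.424) did not pass.

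Of 16 tested clock genes, 3 fell on WSD and none rose (median -0.18), against 2.76% of all tested genes lower and 2.28% higher. HLF, a PAR-domain transcription factor driven by the clock, had a median of 14.9 CPM (9.88 to 21.8) on the control diet and 7.93 CPM (7.03 to 12.8) on WSD (log2 fold change -0.68 ± 0.14, adjusted p = 0.00974). Its relatives TEF (median 35.6 CPM, 20.4 to 65.5, on the control diet and 24.8, 14.3 to 31.0, on WSD, log2 fold change -0.70 ± 0.17, adjusted p = 0.0170) and DBP (median 30.4 CPM, 17.3 to 46.9, on the control diet and 19, 14.9 to 35.8, on WSD, log2 fold change -0.59 ± 0.17, adjusted p = 0.0308) fell too. All 12 WSD animals were below the control median of HLF and of TEF, and 11 for DBP. The other 13 did not pass, with ARNTL at 0.25 (adjusted p = 0.612), PER1 at -0.18 (adjusted p = 0.719) and NR1D1 at -0.28 (adjusted p = 0.424). HLF was called without any 1 animal, DBP in 14 of the 24 fits, and TEF in all but the fit without *C* replicate 1, where it missed the fold threshold (log2 fold change -0.57). Without *C* replicate 1, 1 of the 16 genes was called. The hour of biopsy was not analysed here.

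Of 14 interferon-stimulated genes, IFI6 fell from 68.9 CPM (30.6 to 366) to 39.6 CPM (17.2 to 69.9) (log2 fold change -1.07, adjusted p = 0.0369) and OAS1, which senses double-stranded RNA, from 13 CPM (9.25 to 23.5) to 8.25 CPM (4.20 to 14.6) (log2 fold change -0.67, adjusted p = 0.0212), and MX1 (log2 fold change -0.48, adjusted p = 0.161) and IFIT1 (log2 fold change 0.14, adjusted p = 0.712) did not pass. IFI6 was called in 15 of the 24 fits and had a log2 fold change of -0.71 without *T* replicate 14, its highest animal, and OAS1 in all but the fit without *T* replicate 13, in which its log2 fold change of -0.58 missed the fold threshold. The median of the list changed sign between the 16 libraries outside the group of 8 (0.25) and those 8 (-0.96). None of 10 immediate early genes passed (EGR2, log2 fold change 0.82, adjusted p = 0.164), with medians of 0.83 without testosterone and -0.70 with it, and none of 19 cell division genes (CCNB1, log2 fold change 0.52, adjusted p = 0.192).

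Of 10 steroid receptors and converting enzymes, 1 rose and 1 fell, against 2.28% of all tested genes higher and 2.76% lower. STS, the sulfatase that frees steroids from their sulfates, rose from 16.6 CPM (4.55 to 42.1) to 43.7 CPM (13.1 to 69.0) (log2 fold change 1.33 ± 0.25, adjusted p = 0.00851), with nearly equal effects in both hormone states (log2 fold changes 1.4 in *WSD* against *C* and 1.26 in *T* + *WSD* against *T*). ESR1, the estrogen receptor alpha, fell from 11.1 CPM (7.95 to 21.9) to 7.47 CPM (5.37 to 10.7) (log2 fold change -0.80 ± 0.16, adjusted p = 0.00972), again in both states (log2 fold changes -0.78 in *WSD* against *C* and -0.81 in *T* + *WSD* against *T*). Of 12 WSD animals, 7 were above every control for STS and 8 were below every control for ESR1, and all 12 were below the control median for ESR1. Both calls held without any 1 animal and in the 16 libraries outside the group of 8, but neither gene was called with the mesothelial level as a covariate. ESR1 was highest in *C* replicate 1 (21.9 CPM), *C* replicate 4 (19.9) and *T* replicate 18 (15.7), the animals with the highest mesothelial level. The progesterone receptor PGR did not pass (log2 fold change -0.30, adjusted p = 0.524).

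**Figure D5:**
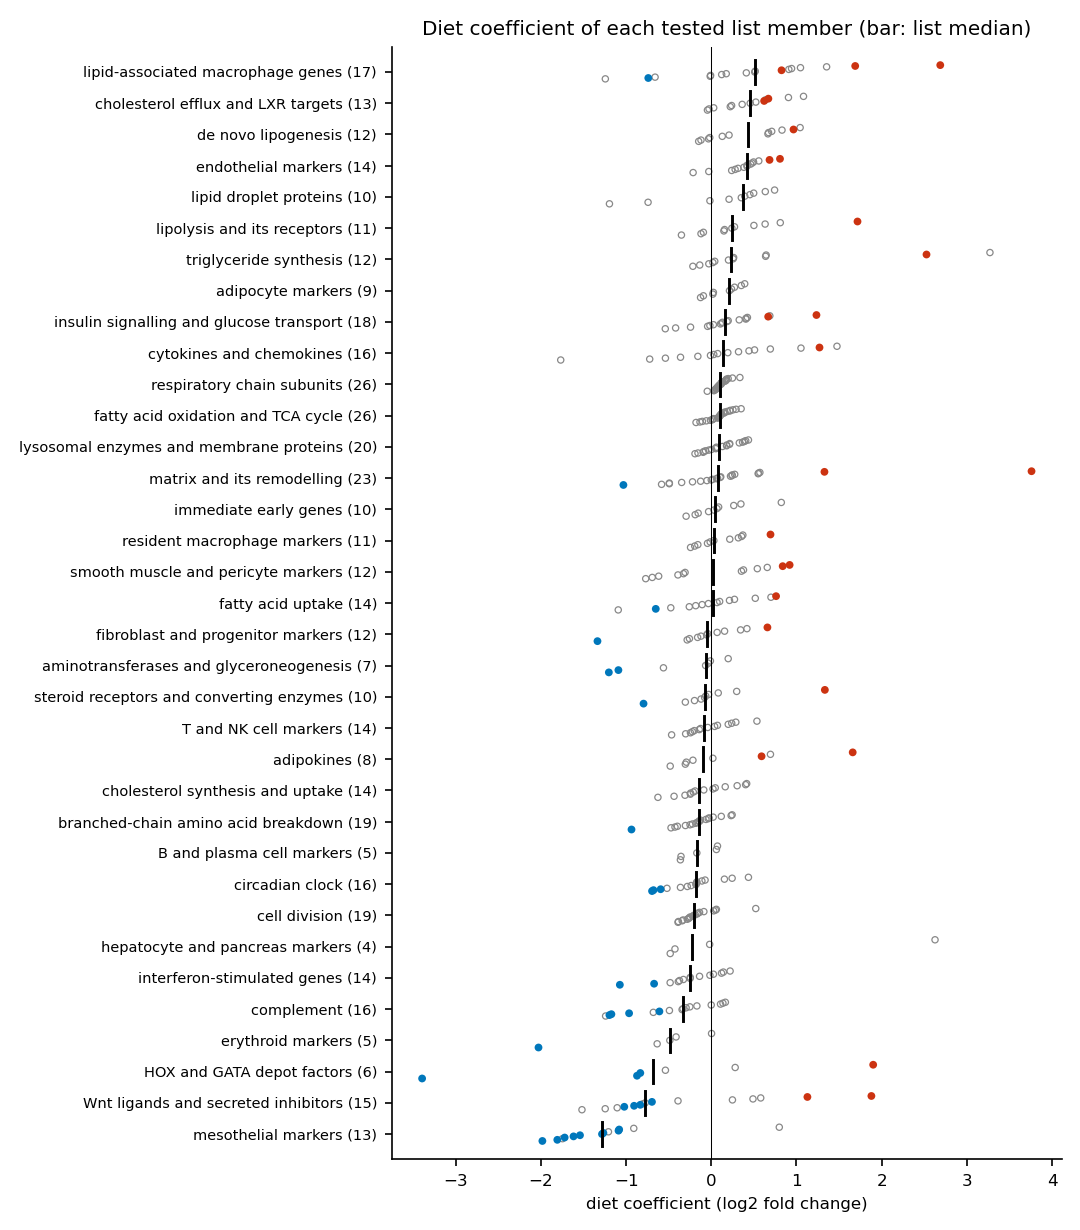
Diet coefficient (log2 fold change) of each tested member of 35 gene lists, with the number tested in parentheses and the list median as a bar. Filled red points are members called higher on WSD, filled blue points are members called lower, and open points were not called. The mesothelial list has the lowest median (-1.28, 9 of 13 lower) and the list of lipid-associated macrophage genes the highest (0.51, 3 of 17 higher and 1 lower).

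Over all lists, 465 distinct genes were tested, of which 26 rose and 34 fell (12.9%, against 5.03% of all tested genes). The lists were chosen with earlier results known, so this share is a description of them only. Of the 70 named DEGs, 39 were called in all 24 fits that left out 1 animal, 29 were called in the 16 libraries outside the group of 8, and 24 had an unadjusted p under 0.05 with the mesothelial level as a covariate, under which 9 changed sign. Of all 765 DEGs, 218 had such a p and an unchanged sign in the fit with that covariate. Of the named DEGs, MSLN, UPK3B, WT1 and KRT19 are themselves members of the covariate list, and MSLN is among the 9.

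The diet effect differed between the hormone states in 37 genes, of which 32 had a positive interaction and 5 a negative one, CETP among the latter. The 5 with a symbol and the smallest p are described here. In ANKRD10, an ankyrin repeat protein, the levels were 63.2 CPM (58.5 to 65.4) in *C*, 49.8 CPM (43.2 to 52.7) in *WSD*, 49.6 CPM (43.4 to 51.7) in *T* and 66.1 CPM (58.7 to 73.9) in *T* + *WSD*, and the interaction was 0.78 ± 0.10 on the log2 scale (adjusted p = 0.000461). It was lower on WSD without testosterone and higher with it (log2 fold changes -0.34 in *WSD* against *C* and 0.43 in *T* + *WSD* against *T*). PNISR, a protein of nuclear speckles, had log2 fold changes -0.37 in *WSD* against *C* and 0.42 in *T* + *WSD* against *T* (interaction adjusted p = 0.00109), and LUC7L3, a splicing factor, had log2 fold changes -0.65 in *WSD* against *C* and 0.35 in *T* + *WSD* against *T* (adjusted p = 0.0197). INPP5F, a phosphoinositide phosphatase, had log2 fold changes -0.09 in *WSD* against *C* and 0.95 in *T* + *WSD* against *T* (adjusted p = 0.0183). The gene listed as MIR5047, a microRNA gene to which reads of a longer host transcript could have been assigned, had log2 fold changes -0.49 in *WSD* against *C* and 0.66 in *T* + *WSD* against *T* (adjusted p = 0.00851). The diet coefficients of these 5 genes lay between -0.15 and 0.43, and none was called.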

How the data were processed

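Total RNA from omental WAT of 24 animals was made into rRNA-depleted libraries and read as single reads. The submitters' processing notes name FastQC 0.11.5, Trimmomatic 0.36, STAR 2.5.2b and the rheMac8 genome, and the authors deposited raw counts per gene and animal. The counting program and its strand setting are not given in the sources used here, so overlapping, antisense and near-identical genes are uncertain. Gene symbols came from a table of gene names, and symbols shared by several genes were not used. Of 592 list entries, 489 matched a gene and 471 were tested, and some list members are not reported here.

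Genes were filtered with edgeR's filterByExpr (minimum count 10, minimum total 15), libraries were scaled by TMM, and an additive model of diet and testosterone was fitted to the 24 animals with the quasi-likelihood test of edgeR 4.0.16 in R 4.3.3. A model with 4 groups gave the diet effect in each hormone state and the interaction. P-values were adjusted by Benjamini-Hochberg over all tested genes, and genes past 1.5-fold with an adjusted value below 0.05 were called DEGs. DESeq2 1.42.0 and limma 3.58.1 (voom) were alternatives, beside other scalings, filters, covariates and left-out animals. The edgeR step was tested on simulated data.

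Genes were named by rule: the 10 largest changes each way among DEGs with a symbol, a mean of at least 1 CPM and more than 3 counts on each diet, up to 4 called members per list by p or else the member with the smallest p, genes the study names, and up to 5 interaction genes. CCDC3 and HOXA10, which the study names, had no unique symbol match and were not analysed here. Members and lists were chosen with earlier results of these data known. Genes under the filter were not tested, and library depth is given above.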

Additional observations from a re-analysis of the deposited data

Results flagged for a closer look

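In 29 of 356 combinations of a named gene and a group, 1 animal lay far from the other 5 by Dixon's criterion, which chance meets in about 1 of 20 groups. Many of the genes were named for their change in these same animals, so the rate of 1 in 20 is not a base for these counts. *T* replicate 18 and *T* + *WSD* replicate 12 recurred, with 6 values each. *T* replicate 18 was high for C4BPA (68.8 CPM, the other 5 animals of *T* at 2.25 to 8.83), C4BPB (8.13), HOXA9 (36.9), NXPH2 (13.5), SLC34A2 (2.56) and, at a low level, SLC24A2 (0.375). *T* + *WSD* replicate 12 was low for genes that were high in the rest of its group, LEP (592 CPM, against 1150 to 1580), NRCAM (18.3), RNF157 (12.6), NPR3 (57.1) and INPP5F (72.2), and high for PPM1K (19.5), a gene that was low in the rest of its group. *T* + *WSD* replicate 8 had the least KRT19 (5.94 CPM, against 29.1 to 64.7), WT1 (11) and CFB (135). *C* replicate 6 was high for SLC24A2 (5.23) and DMGDH (3.07), genes that were higher on WSD.

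Single values stood apart in other animals. High ones were MMP7 (32.3) and HLF (10.5) in *T* + *WSD* replicate 7, STAB1 (772) in *T* + *WSD* replicate 9, VLDLR in *T* + *WSD* replicate 11 (54.3) and *WSD* replicate 24 (108), ALB (1.49) in *WSD* replicate 20, GPR158 (8.26) in *T* replicate 14, INPP5F (63.2) in *T* replicate 15 and CD79B (2.95) in *C* replicate 2, all in CPM. Low ones were HK2 (17.3) in *WSD* replicate 19, CFB (306) in *WSD* replicate 21 and TEF (14.3) in *WSD* replicate 23.

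The diet effect differed between the hormone states by the interaction test of edgeR in ANKRD10 (interaction 0.78 on the log2 scale), PNISR (0.79), LUC7L3 (1.0), INPP5F (1.05) and MIR5047 (1.15), the 5 with a symbol and the smallest p among the 37 that passed. Of the 37, 5 had a negative interaction, CETP (-3.36) among them.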

How the results depend on the processing

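The 765 DEGs of the diet comparison became 1697 without a fold threshold, 329 with one of 2, 491 with at least 10 counts in every animal, 391 in the 16 libraries in which ENSMMUG00000038258 was low, 0 in the other 8 (chosen after seeing the data) and 1 with the mesothelial level as a covariate. Leaving out 1 animal gave 451 (without *WSD* replicate 21) to 948 (without *WSD* replicate 24), with 492 without *C* replicate 1. The scalings, unfiltered table, covariate for the 8 libraries, model without testosterone, DESeq2 and limma-voom gave 601 to 1124. The share of calls that were higher on WSD was 45.2%, 56.5% with limma-voom and 61.6% in the 16 libraries. Under testosterone, 574 became 988 without a fold threshold, 340 with one of 2, 1086 with DESeq2, 308 in the 16 libraries, 0 in the 8 (922 at an unadjusted p under 0.05) and 0 with the covariate (1229), and 238 (without *T* + *WSD* replicate 10) to 828 (without *C* replicate 1) without 1 animal. Without testosterone, 0 became 238 with DESeq2 and 1 each with edgeR's newer dispersion setting and with the covariate for the 8 libraries, stayed 0 with limma-voom, and ran from 0 to 59 (without *WSD* replicate 19) without 1 animal. The 37 interaction genes became 24 above 2-fold, 7 without a filter, 165 with DESeq2, 0 in the 16 libraries (1488 at an unadjusted p under 0.05), 0 in the 8 (620) and 23 with the mesothelial covariate, and 11 (without *C* replicate 1) to 96 (without *WSD* replicate 21) without 1 animal.

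Diet coefficients that changed sign did so mostly with the mesothelial covariate, namely C4BPA (0.93), C4BPB (0.68), NXPH2 (0.54), SLC26A4 (0.51), DPP4 (0.36), MSLN (0.088), SSTR1 (0.064), TIMP1 (0.052), SLC34A2 (0.032), ANKRD10 (-0.082), MIR5047 (-0.085) and PNISR (-0.11). CCNB1 was at -0.12 in the 8 libraries and CD79B at 0.083 in the 16, and PNISR ran from -0.0099 to 0.073 when 1 animal was left out, below 0 without *T* replicate 13, *T* replicate 14 or *T* + *WSD* replicate 12. The causes were not tested. No paired analysis was possible because the groups share no replicate numbers.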
